A study of Mus musculus with 4 samples.

Results

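Calpains are cysteine proteases of the cytosol that calcium activates and that cut their targets at a few sites instead of degrading them. The classical enzymes pair a catalytic large subunit, encoded by Capn1 or Capn2, with a shared regulatory small subunit, encoded by Capns1, and calpastatin, encoded by Cast, is their dedicated inhibitor. Other family members lack the calcium-binding penta-EF-hand domain of the classical enzymes or are known from particular tissues, and calpain targets include proteins that tie integrins to the actin cytoskeleton. Of the 23420 gene rows measured, 8 are described here, namely Capn1, Capn2, Capns1, Cast, Capn3, Capn5, Capn7 and Capn10. They were chosen by symbol with their fold changes in this comparison already known, so the levels, fold changes and calls of these 8 genes are given as a description and support no test.

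The RNA was that of mouse large pre-B cells, a line of the genotype Irf4/8-/- that lacks 2 interferon regulatory factors in every group. Large pre-B cells are the dividing, interleukin-7-dependent stage of B cell development. The cells were grown on OP9 stromal cells with 10 ng/ml of interleukin 7, transduced with a retrovirus that carries green fluorescent protein and a hairpin, kept for 72 hours and sorted for fluorescence. The hairpin was directed at Myb, a transcription factor of blood progenitors (shMyb, 2 libraries), or at luciferase as a control target (shLuc, 2 libraries). The 2 libraries of a group came from duplicate sets of wells of 1 line, so a p-value here reflects variation among transductions of that line, with no other line or animal sampled.

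Libraries held 36573743 to 44682954 counts. Myb itself was at 617 and 639 CPM (counts scaled to a common library total, with TMM factors) in the libraries labelled shMyb, against 616 and 600 CPM in shLuc, a log2 fold change of 0.05 (SE 0.04, edgeR adjusted p = 0.283). With library totals alone it was 0.11 (edgeR adjusted p = 0.0109) and with the expression trend removed 0.15 (edgeR adjusted p = 0.00156), both called higher. Over all 15 alternatives it ranged from 0.02 to 0.15 and the adjusted p from 0.00156 to 0.795. The Myb transcript was therefore not lower where its hairpin was used, and directions given here compare libraries by their labels alone. Among the pre-B markers, Cd79a, Cd79b and the surrogate light chain pair Vpreb1 and Igll1 each averaged at least 592 CPM in both groups, as the label of the line calls for. The Irf4 and Irf8 deletions cannot be checked from counts per gene.

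The 2 large subunits of the classical enzymes share the small subunit, yet their transcripts differed between the groups by very unequal amounts, so the bases upstream of both genes are shown. Positions are in GRCm38 (mm10), and the sequences are RefSeq's for GRCm38.p6 on the minus strand, read 5′ to 3′ up to the annotated start. No base that RefSeq or GENCODE counts as transcribed from the same gene is included. Transcripts of other genes were not checked for. Capitals mark matches on either strand to TAACNG or CAACNG, the 2 forms of the word that MYB proteins are known to bind. The Capn2 window is chr1:182517611-182517860 and the Capn1 window is chr19:6015898-6016075.
Capn2: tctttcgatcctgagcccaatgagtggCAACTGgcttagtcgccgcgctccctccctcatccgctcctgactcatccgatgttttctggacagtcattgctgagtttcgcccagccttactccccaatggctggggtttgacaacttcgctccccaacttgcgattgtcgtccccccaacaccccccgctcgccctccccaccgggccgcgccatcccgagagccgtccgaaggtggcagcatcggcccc
Capn1: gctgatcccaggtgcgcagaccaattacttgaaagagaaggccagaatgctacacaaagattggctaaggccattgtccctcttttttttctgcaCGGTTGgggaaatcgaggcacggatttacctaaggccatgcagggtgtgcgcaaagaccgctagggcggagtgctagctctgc
Each of the 2 windows shown held 1 match, a description of the letters and not evidence of binding. RefSeq gives Capn1 another start, and the 250 bases before it (chr19:6015248-6015497, GC content 60.8%) held 0 matches. Over the 250 bases before all 32851 RefSeq starts in the table, 43.1% of windows held a match. Among 12 such windows of 7 of the 8 genes, 5 held one. The 250 bases before Capn2 had a GC content of 62.8%, against a median of 52.4% over all windows. The full 250 bases before the RefSeq start of Capn1 to which the window shown belongs had 58.8%. These include 72 bases, not printed, that GENCODE counts as transcribed.

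Capn2, the large subunit of m-calpain, was the only one of the 8 genes called lower in the libraries labelled shMyb. The gene lies on chromosome 1 at 182467260 to 182517608 on the minus strand. Capn2 was at 31.0 and 30.3 CPM in the libraries labelled shMyb, against 107 and 110 CPM in shLuc. The libraries of a group lay close together and the groups were far apart. Fitted by edgeR's quasi-likelihood method, Capn2 was 3.54-fold lower, a log2 fold change of -1.82 (SE 0.04). Falls at least this large were found in 76 of 12610 tested genes, Capn2 included. In bulk RNA, fewer cells of a type and less RNA per cell cannot be told apart.

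Feeder cells make many of the genes of adherent cells, so their markers are given beside Capn2. Of 12 stromal markers 11 were tested, 2 were called higher and 3 lower. Over all tested genes 30.6% were called higher and 31.7% lower. The summed level of the stromal markers was 52.8 and 59.9 CPM in the libraries labelled shMyb, against 56.9 to 73.0 CPM in shLuc. The groups overlapped. Of single markers, the fibronectin gene Fn1 averaged 7.18 ± 0.317 CPM in the libraries labelled shMyb and 20.6 ± 2.90 CPM in shLuc (SD, n = 2 each), while the collagen gene Col1a1 averaged 13.7 ± 1.54 and 13.1 ± 2.71 CPM. Cxcl12, a chemokine gene of bone marrow stroma, was called lower (log2 fold change -1.80). It had 16 and 26 counts in the libraries labelled shMyb, against 76 and 84 in shLuc. The collagen gene Col6a1 was also called lower (-0.49), and the matrix protein genes Sparc (0.42) and Postn (1.01) were called higher. Of the 6 not called, Col3a1 (1.24), Dcn (1.06), Pdgfrb (0.45) and Col1a1 (0.08) were higher, and Col1a2 (-0.19) and Pdgfra (-0.14) were lower. The median log2 fold change of the tested stromal markers was 0.08. Lum, a matrix proteoglycan gene, had 2 counts in 1 library labelled shMyb and was at 0 in the other 3. The part of feeder RNA in the Capn2 difference was not tested.

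Capn1, the large subunit of µ-calpain on chromosome 19 at 5988545 to 6015897, showed a small difference the other way. It was at 74.3 and 68.3 CPM in the libraries labelled shMyb, against 62.6 and 66.2 CPM in shLuc. The groups did not overlap, but the gap between the nearest libraries was smaller than the spread within either group. The log2 fold change was 0.15 (SE 0.05), a call that ended without shMyb replicate 1, without shLuc replicate 1 (0.08 in each case) and with DESeq2 (0.13).

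Capns1, the small subunit that both large subunits need, was the most abundant member for its length. It lies on chromosome 7 at 30186936 to 30198811. Its level was 132 and 131 CPM in the libraries labelled shMyb, against 131 and 141 CPM in shLuc, and the groups overlapped. The log2 fold change was -0.05 (SE 0.04) and was not called. Scaled by library totals alone it was 0.02, and without shLuc replicate 1 it was -0.12 and called lower.

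Cast, the inhibitor, on chromosome 13 at 74692368 to 74808810, was at 57.7 and 54.4 CPM in the libraries labelled shMyb, against 48.9 and 47.3 CPM in shLuc. Both libraries labelled shMyb were above both shLuc libraries. The log2 fold change was 0.22 (SE 0.05), called higher in the fit and in all 15 other settings tried. RefSeq gives Cast 4 separate starts, and counts per gene add its isoforms together. Exons of Cast share 834 bases with Erap1, an aminopeptidase gene on the opposite strand, which averaged 159 ± 2.60 CPM in the libraries labelled shMyb and 182 ± 4.27 CPM in shLuc (SD, n = 2 each).

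**Figure D1:**
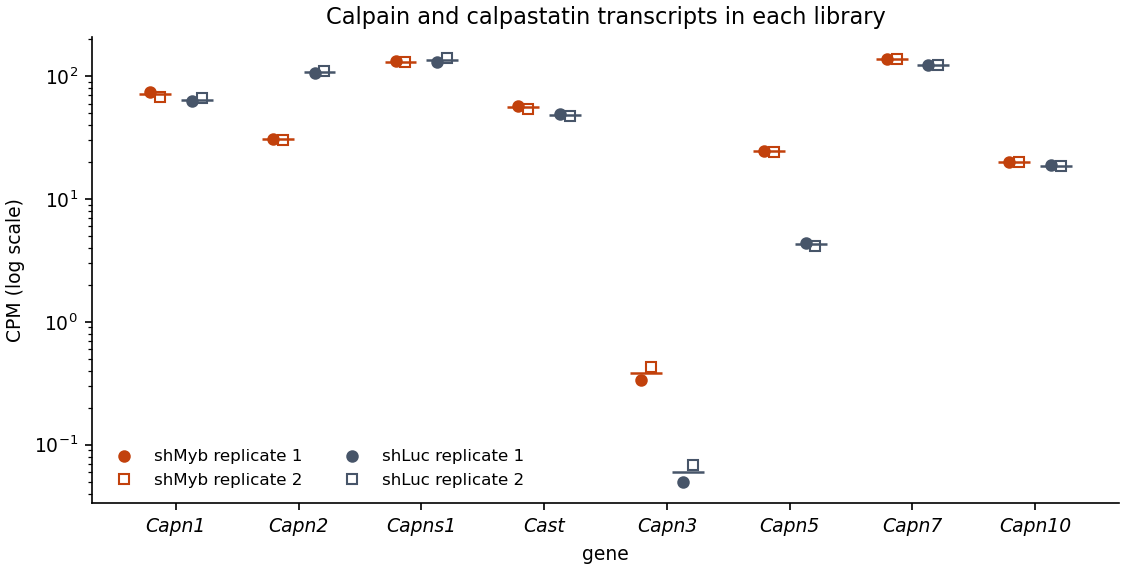
CPM of each of the 8 genes (log axis) in the 2 libraries labelled shMyb and the 2 shLuc libraries, with horizontal lines at the group means. Capn2 lies near 31 CPM in the libraries labelled shMyb and near 109 CPM in shLuc, Capn5 lies near 24.4 and 4.27 CPM, and Capns1 has overlapping groups.

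Capn5, a calpain without the penta-EF-hand domain and in humans a gene of an inherited eye disease, showed the largest well-measured rise among the members. It lies on chromosome 7 at 98121559 to 98178274 on the minus strand. Capn5 was at 24.8 and 24.0 CPM in the libraries labelled shMyb, against 4.40 and 4.13 CPM in shLuc, on 968 and 902 counts against 176 and 180. All 4 values fell in 2 tight pairs. The gene was 5.73-fold higher, a log2 fold change of 2.52 (SE 0.08), and 60 of 12610 tested genes rose at least this much, Capn5 included. No annotated exon overlaps those of Capn5. Omp, the olfactory marker protein gene, lies within the Capn5 locus on the same strand, and averaged 0.795 ± 0.146 CPM in the libraries labelled shMyb and 0.145 ± 0.0427 CPM in shLuc (SD, n = 2 each).

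Markers of other blood cells are given beside Capn5. Over all tested genes 30.6% were called higher and 31.7% lower, and the counts of called markers stand beside those shares. Of 12 myeloid markers 7 were tested, 4 were called higher and none lower, and their summed level was 9.14 and 11.3 CPM in the libraries labelled shMyb, against 6.18 and 4.98 CPM in shLuc. The 4 were Itgam, an integrin gene of myeloid cells, S100a9, Lyz2 and Cd68. Itgam had 112 and 124 counts in the libraries labelled shMyb, against 48 and 42 in shLuc (log2 fold change 1.51). In the same order S100a9 had 33 and 48 counts, against 18 and 5 (1.93). Lyz2 had 32 and 59, against 26 and 24 (0.99), and Cd68 had 102 and 115, against 81 and 71 (0.64). Of the 3 not called, S100a8 (0.95) and Fcgr3 (0.93) were higher and Csf1r (-0.40) was lower. Elane, the neutrophil elastase gene, was at 0 in all 4 libraries, and Mpo, myeloperoxidase, had at most 1 count. Of 7 T cell markers, 6 were used and 1 was tested. Cd4 and Cd8a were at 0 in all 4 libraries, while Thy1, which stromal cells also express, was called higher, at 62.5 and 58.7 CPM in the libraries labelled shMyb, against 12.9 and 11.7 CPM in shLuc. Of the 7 erythroid and platelet markers only Itga2b was tested and it was not called. Their summed level was 1.03 and 1.17 CPM in the libraries labelled shMyb, against 0.757 to 0.826 CPM in shLuc, and the globin genes Hba-a1 and Hbb-bt were at 0 in all 4. Of 6 mature B and plasma cell markers 2 were called higher and 3 lower, at 115 and 120 CPM summed in the libraries labelled shMyb, against 62.9 and 58.4 CPM in shLuc. Of these, Cd22 alone averaged 87.9 ± 3.18 CPM in the libraries labelled shMyb and 25.2 ± 1.51 CPM in shLuc (SD, n = 2 each). The part of these cell types in the Capn5 difference was not tested.

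Capn3, best known as the calpain of skeletal muscle and mutated in a human limb-girdle muscular dystrophy, was barely detected. It lies on chromosome 2 at 120456019 to 120504913 and had 13 and 16 counts in the libraries labelled shMyb, against 2 and 3 counts in shLuc. The summed 29 counts against 5 gave a ratio of 6.33 after scaling, which is imprecise on so few counts. The gene passed the filter on low counts only through the libraries labelled shMyb, which favours a difference in that direction. Its exons share 386 bases with those of Ganc, an alpha-glucosidase gene on the same strand, which was at 33.0 and 35.6 CPM in the libraries labelled shMyb, against 23.2 and 22.6 CPM in shLuc. The part of Ganc reads in the Capn3 counts was not tested.

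Capn7, a calpain with microtubule interacting and transport domains that binds components of the ESCRT membrane machinery, on chromosome 14 at 31336638 to 31371986, was the most abundant catalytic member per kilobase of merged exons. It was at 138 and 137 CPM in the libraries labelled shMyb, against 123 CPM in both shLuc libraries. The duplicates were almost equal and the groups did not overlap. The log2 fold change was 0.16 (SE 0.04), called higher. Sh3bp5, whose exons share 116 bases with Capn7 on the opposite strand, was at 0.02 and not called.

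Capn10, a calpain without the penta-EF-hand domain that human genetics has linked to type 2 diabetes, on chromosome 1 at 92934376 to 92947941, was at 19.9 and 20.0 CPM in the libraries labelled shMyb, against 18.9 and 18.6 CPM in shLuc. The groups did not overlap, and the log2 fold change of 0.09 (SE 0.06) was not called. With library totals alone it was 0.15 and called higher.

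In all, 5 of the 8 genes were called higher, 1 lower and 2 were not called at an adjusted p below 0.05 over all tested genes. Over the 12610 tested genes, 30.6% were called higher, 31.7% lower and 62.2% either way. The groups did not overlap in 7 of the 8 genes, against 82.1% of all tested genes. Since the genes were chosen with this comparison known, nothing is read from these counts. The median size of the log2 fold change was 0.194 over the 8 genes and 0.236 over all tested genes. A size of at least 1.5 was found in Capn2, Capn5 and Capn3 and in 4.98% of tested genes. The genes were chosen with these sizes known, so nothing is read from them either. Capn3 also passed the filter only through the libraries labelled shMyb. With library totals alone in place of TMM, 60.1% of called genes were higher, against 49.1%.

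**Figure D2:**
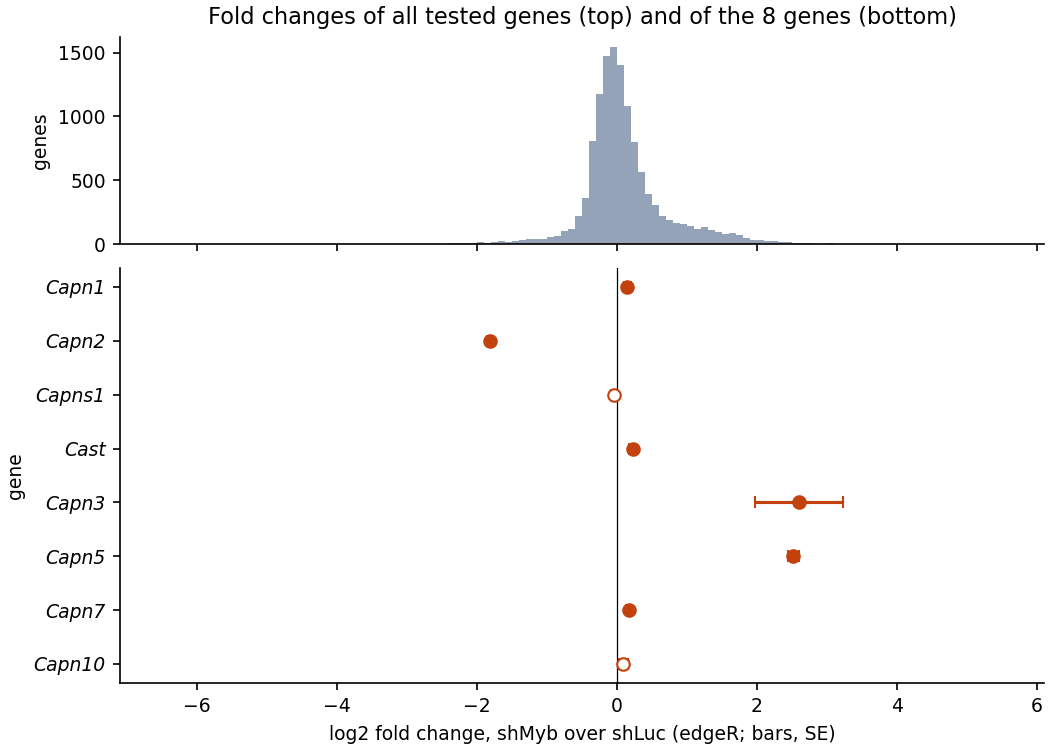
The upper panel counts all 12610 tested genes by log2 fold change of the libraries labelled shMyb over shLuc, and the lower panel gives the 8 genes with SE, filled where called. Capn2 at -1.82 and Capn5 at 2.52 lie in the tails, Capn3 at 2.60 has the widest error, and the other 5 lie between -0.05 and 0.22.

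Levels were compared between genes per kilobase of merged exons. In the libraries labelled shMyb the order was Capns1 (53.0 ± 0.271 CPM per kilobase), Capn7 (28.1 ± 0.0811), Capn1 (21.3 ± 1.26), Cast (4.89 ± 0.206), Capn2 (4.84 ± 0.0805), Capn10 (4.59 ± 0.00942), Capn5 (4.45 ± 0.106) and Capn3 (0.0756 ± 0.0130; SD, n = 2 each). Cast and Capn2 did not differ there beyond their spread. In shLuc the order was Capns1 (54.8 ± 2.89 CPM per kilobase), Capn7 (25.1 ± 0.0233), Capn1 (19.3 ± 0.755), Capn2 (17.1 ± 0.264), Capn10 (4.31 ± 0.0496), Cast (4.19 ± 0.101), Capn5 (0.778 ± 0.0353) and Capn3 (0.0118 ± 0.00265), with no overlap between neighbours. Capn2 thus ranked beside Capn1 in shLuc and beside Cast in the libraries labelled shMyb, and Capn5 was at rank 7 in both groups. Per kilobase of the longest coding transcript, Capn2 was instead at rank 2 in shLuc, overlapping Capn7, with Capn1 at rank 4.

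The makeup of the 6 catalytic genes differed between the groups. Their sum was 64.5 and 62.3 CPM per kilobase in the libraries labelled shMyb, against 65.9 and 67.2 in shLuc. Capn2 made up 7.59% and 7.67% of it in the libraries labelled shMyb, against 25.7% in both shLuc libraries. Capn5 made up 7.03% and 7.02%, against 1.22% and 1.12%. Capn7 had 43.7% and 45.0%, against 38.1% and 37.3%, and Capn1 had 34.5% and 32.8%, against 28.4% and 29.5%. Per kilobase of the longest coding transcript, a length chosen after the data were seen, the sum was 84.2 and 81.7 in the libraries labelled shMyb, against 94.9 and 96.6 in shLuc, so how far apart the sums lay depended on the length used. Capn2 then made up 11.4% and 11.5% in the libraries labelled shMyb, against 35.1% and 35.2% in shLuc. With either length the share of Capn2 was smaller in the libraries labelled shMyb.

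Ratios within the classical system shifted with Capn2. The ratio of Capn2 to Capn1 per kilobase was 0.220 and 0.234 in the libraries labelled shMyb, against 0.903 and 0.873 in shLuc. Capns1 stood at 1.96 and 2.10 times the sum of Capn1 and Capn2, against 1.48 and 1.53 times. Cast stood at 0.186 and 0.188 times that sum, against 0.120 and 0.111 times. These ratios are of transcripts, and counts do not measure protein or protease activity. Taken per kilobase of the longest coding transcript, the ratio of Capn2 to Capn1 was 0.397 and 0.421 in the libraries labelled shMyb, against 1.63 and 1.57 in shLuc, so which large subunit was higher in shLuc depended on the length used. With that length Capns1 stood at 2.43 and 2.58 times the sum of Capn1 and Capn2 in the libraries labelled shMyb, against 1.52 and 1.58 times in shLuc. Cast stood at 0.331 and 0.334 times it, against 0.177 and 0.165 times.

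**Figure D3:**
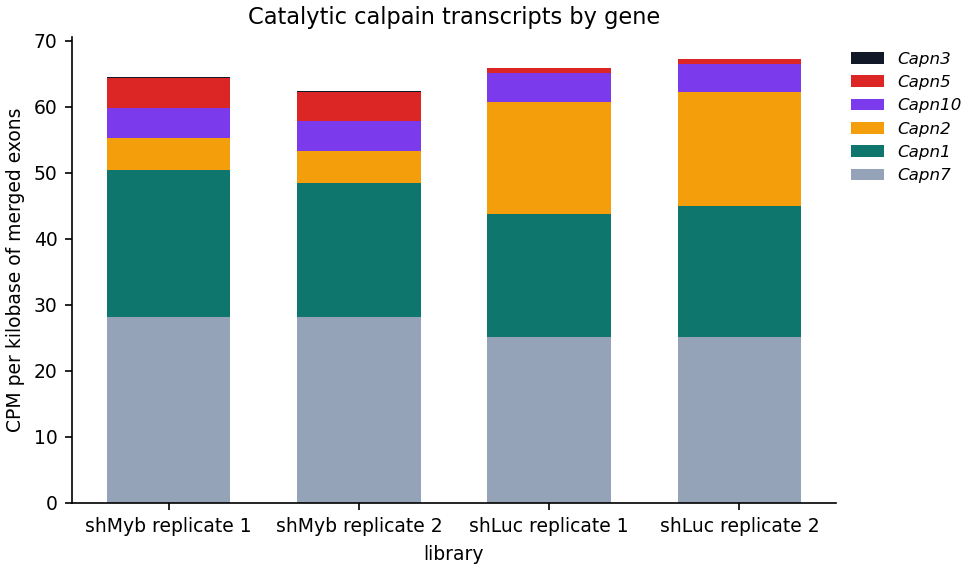
Stacked CPM per kilobase of merged exons of the 6 catalytic calpain genes in each library. The bars reach 62.3 to 67.2, and the Capn2 segment is 4.89 and 4.78 in the libraries labelled shMyb and 16.9 and 17.3 in shLuc.

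The genes whose profile over the 4 libraries lay nearest to those of Capn5 and Capn2 were looked up among the 8295 genes that averaged 10 CPM or more, by Euclidean distance between centred log2 CPM values. With 2 groups of 2 this mainly picks genes with a like group difference. Nearest to Capn5 were Thy1 (distance 0.142, log2 fold change 2.30), the thrombomodulin gene Thbd (0.153, 2.40) and the calcium channel gene Cacna1e (0.259, 2.71). Thbd was at 21.4 and 21.6 CPM in the libraries labelled shMyb, against 4.03 and 4.13 CPM in shLuc. Nearest to Capn2 were the cyclophilin gene Ppic (distance 0.0747, log2 fold change -2.00), the calponin gene Cnn1 (0.0833, -1.97) and the small heat shock protein gene Hspb8 (0.112, -1.98). Cnn1 was at 5.67 and 5.56 CPM in the libraries labelled shMyb, against 22.1 and 22.0 CPM in shLuc.

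Genes related to calpains but outside the 8 were tested in the same fit, with p-values adjusted over all tested genes. Of the 8 remaining calpain family genes searched for, 4 were tested and none was called by edgeR, with 0 at an unadjusted p below 0.05, nor was any called with DESeq2 or limma-voom. Capn15, a calpain with zinc fingers, averaged 39.1 ± 3.50 CPM in the libraries labelled shMyb and 37.4 ± 2.07 CPM in shLuc. Capn11 (0.17), Capn13 (0.68) and Capns2 (-0.20) had at most 29 counts in a library, and Capn13 had 12 and 22 counts in the libraries labelled shMyb, against 21 and 2 in shLuc. Capn6, Capn8, Capn9 and Capn12 had at most 10 counts in a library and were not tested.

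Other proteins carry the penta-EF-hand domain of the small subunit without being calpains, and of 4 such genes 2 fell, where 31.7% of all tested genes were called lower. Gca, grancalcin, was at 3.17 ± 0.379 CPM in the libraries labelled shMyb and 10.3 ± 0.193 CPM in shLuc (SD, n = 2 each, log2 fold change -1.70, SE 0.11, edgeR adjusted p = 2.7e-12). Pdcd6, also called ALG-2, fell by 0.31 on the log2 scale (SE 0.04, edgeR adjusted p = 6.9e-07). Sri, sorcin, at 0.08 and Pef1, peflin, at -0.09 did not pass. Pef1 was called lower without shLuc replicate 1 (-0.20) and without shMyb replicate 1 (-0.17).

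Of 23 genes for proteins that calpains are known to cut, 7 rose, 8 fell and 8 did not pass, at a median log2 fold change of -0.04 against 0.005 over all tested genes. The 15 called genes stand beside 62.2% called over all tested genes. Among adhesion and cytoskeletal targets, Ezr, which links membrane to actin, fell to 398 ± 9.09 CPM in the libraries labelled shMyb, against 507 ± 8.99 CPM in shLuc (log2 fold change -0.35, edgeR adjusted p = 1.1e-08). The integrin genes Itgb1 and Itgb3 fell by 0.34 and 0.50. Talin, encoded by Tln1, and alpha-spectrin, encoded by Sptan1, rose by 0.23 and 0.22. Of the transcription factors on the list, Myc fell by 0.57, Jun rose by 0.38 and Fos rose by 0.29. The Fos call and that of Vim (-0.09) were lost in several settings, DESeq2 and limma-voom among them. Without shLuc replicate 1 only 4 of the 23 were called higher.

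Caspases are the cysteine proteases of cell death and inflammation. Of 12 caspase and related genes 11 were tested, 3 rose, 4 fell and 4 did not pass, and the 7 called genes stand beside 62.2% called over all tested genes. Casp1, which processes inflammatory cytokines, was at 4.17 ± 0.242 CPM in the libraries labelled shMyb and 11.0 ± 0.785 CPM in shLuc (log2 fold change -1.40, SE 0.10, edgeR adjusted p = 2.7e-11). Casp9, the initiator caspase of the mitochondrial pathway, rose to 23.9 ± 1.15 CPM in the libraries labelled shMyb, against 14.5 ± 0.158 CPM in shLuc (0.72, SE 0.06, edgeR adjusted p = 6.9e-10). Casp8, the initiator at death receptors, rose by 0.35, while Casp2 fell by 0.17.

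Calcium is the signal that activates the classical enzymes, and of 29 genes for its entry, stores, pumps and sensing 12 rose, 10 fell and 7 did not pass (median log2 fold change 0.07). Over all tested genes 30.6% were called higher and 31.7% lower. The inositol trisphosphate receptor genes Itpr2, Itpr3 and Itpr1, which release calcium from the endoplasmic reticulum, all rose. Itpr2 reached 142 ± 4.69 CPM in the libraries labelled shMyb, against 87.9 ± 4.63 CPM in shLuc (0.69, SE 0.04, edgeR adjusted p = 4.1e-13), Itpr3 rose by 0.39 and Itpr1 by 0.18. Of the plasma membrane channel genes, Orai2 rose by 0.64 and Orai3 by 0.31, while Orai1 fell by 0.18. The Orai1 call was lost with library totals alone (-0.12), without shLuc replicate 2 (-0.16) and with DESeq2 (-0.19). Of the pumps that refill the stores, Atp2a3 rose by 0.45 and Atp2a2 fell by 0.21. Ppp3r1, the regulatory subunit of calcineurin, fell by 0.32.

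**Figure D4:**
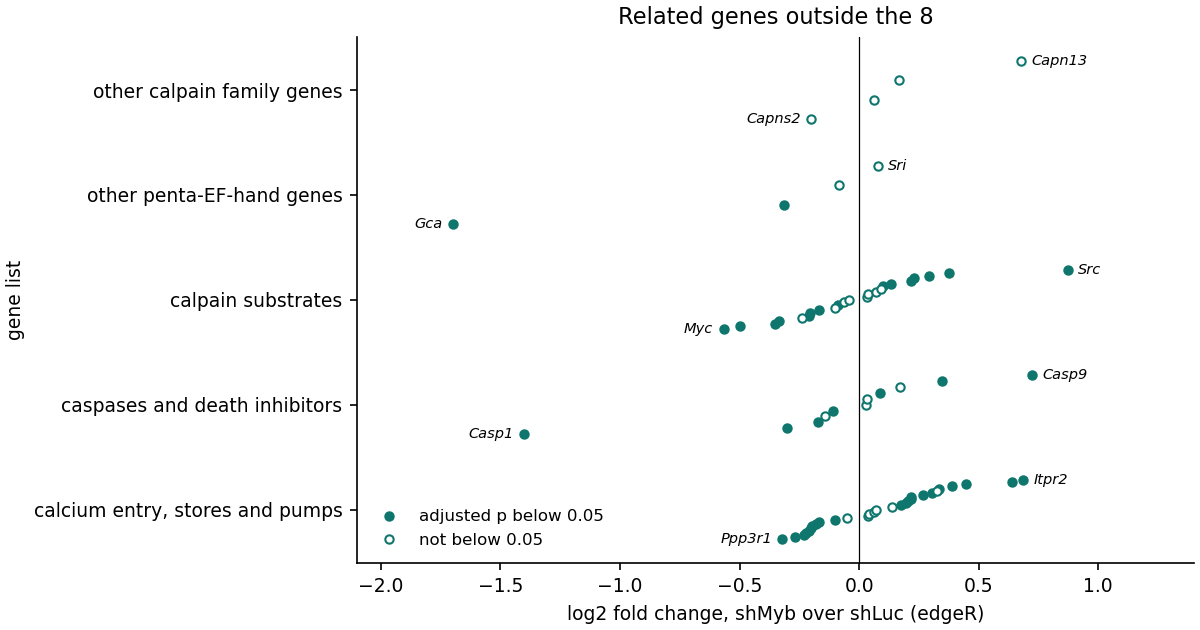
Log2 fold change of the libraries labelled shMyb over shLuc for the tested genes of the 5 related lists, 1 point per gene, filled where the edgeR adjusted p was below 0.05, with the lowest and highest gene of each list named. Gca at -1.70, Casp1 at -1.40 and Src at 0.87 lie farthest from 0, and each of the 3 longest lists has called genes on both sides.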

How the data were processed

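RNA-seq counts of 4 libraries were analysed, 2 per group, grouped by title. Each deposited file holds the raw counts of 1 library by gene symbol, 36573743 to 44682954 in all. STAR, HTSeq, FastQC, DESeq2 and the build mm10 are listed in the submitters' processing notes. The annotation, the strand setting and tool versions were not given in the sources used here, so reads of overlapping genes may not be separated. Positions and exon lengths come from GENCODE M21 (GRCm38), which matched 23035 symbols.

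The quasi-likelihood test of edgeR 4.0.16 (R 4.3.3) was run on the counts after filterByExpr (minimum count 10, 12610 genes kept) and TMM scaling, with robust=TRUE and a group term alone. P-values were Benjamini-Hochberg adjusted over all tested genes and called below 0.05. CPM use TMM-scaled totals, and values with ± are means and SD of 2 libraries. A standard error is the log2 fold change divided by the square root of F. Profile distances used log2(CPM + 0.5). A chi-square test between duplicates gave 4.24 (shMyb) and 3.81 (shLuc) per degree of freedom, above counting noise, so each library counted as a sample. The fit was tested on simulated data, where the 2-fold changes it missed were all in genes under 1 CPM. The pass criterion was restricted to genes of 1 CPM or more after a first version over all genes failed. In the simulation only a small part of the genes was changed, and variability followed expression level alone. It therefore cannot show how the fit or the scaling holds in these data, where 62.2% of tested genes were called. The members and gene lists were chosen with earlier results of these data known. Named were Myb, the 8 genes, up to 5 called genes of smallest p per list, 3 nearest profiles and markers. Genes named beyond that rule (Tln1, Sptan1, Fos, Vim, Itpr1, Orai1, Orai3 and Atp2a2) were added after their values were seen. Erap1, Ganc, Omp and Sh3bp5 also lie outside the rule and were named because they overlap 1 of the 8 genes. Some genes that the rule took are not reported here. Alternatives included DESeq2 1.42.0 and limma-voom (limma 3.58.1).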

Additional observations from a re-analysis of the deposited data

How the results depend on the processing

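Capn2, Capn5, Cast and Capn7 kept their direction and call in all 15 alternatives, from -1.86 to -1.76 for Capn2, 2.46 to 2.58 for Capn5, 0.17 to 0.29 for Cast and 0.14 to 0.23 for Capn7. Capn3 ranged from 1.98 to 2.83 in the 14 that gave it a value, and was at 2.59 with no low-count filter. It passed the main filter only through the libraries labelled shMyb, and this range on the same few counts is no sign of stability. The filter of 1 CPM in 2 libraries removed it. The sign of Capns1 turned with library totals (0.02). With each library left out in turn, 1 or 2 of the 8 genes were called lower. In the same runs 0 or 1 other calpain family genes (Capn13 without shLuc replicate 1, Capn15 without shMyb replicate 1) and 4 to 6 calpain substrates were called higher. With library totals, the 1 CPM filter, the expression trend removed or the crossed pairing, 1 penta-EF-hand gene (Sri) was called higher. The cause was not tested. The shLuc order of levels changed at 5 ranks with the longest coding transcript as length.

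Replicate numbers in the titles share only a number. Deviations of same-numbered libraries from their group means correlated at -0.252 over 12610 genes. A replicate block called 3632 genes higher and 3709 lower, against 3855 and 3994 without it, and changed no call of the 8 genes. The crossed pairing, added after seeing the data, called 4258 and 4335. Depth limits Capn3 most, at 2 to 16 counts.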
